A study of Homo sapiens with 2 samples.

Results

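The genes described here encode the proteins of the mitochondrial ribosome, as named by the symbols MRPL (large subunit) and MRPS (small subunit). They were taken as all protein-coding genes whose annotated symbol is MRPL or MRPS followed by a number and, in some cases, a letter A to C, and whose identifier is listed for both libraries. The annotation holds 78 such genes, of which 76 were found, 48 MRPL and 28 MRPS, among 57736 listed genes and 19391 listed protein-coding genes. MRPL45 and MRPS21 had no matching identifier and are not analysed here. The cells were HEK293T, wild type, derived from human embryonic kidney and expressing the large T antigen of SV40. They were heated for 20 min at 43 °C and returned to 37 °C for 6 h, and poly(A)+ RNA was then sequenced. The labels give a single group of 2 libraries, lysed separately and named replicate 1 and replicate 2. The labels do not say whether they came from separate cultures, and the differences between them may be technical. Untreated cells are not analysed here, so no value below is an effect of heat.

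The mitochondrial ribosome makes the few proteins encoded by mitochondrial DNA, which are subunits of the respiratory chain and the ATP synthase. Its rRNAs are transcribed inside the organelle, while all of its proteins are encoded in the nucleus, made in the cytosol and imported. Part of its proteins have bacterial homologues, and others arose in the mitochondrial lineage. In growing cells these genes are broadly expressed.

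Replicate 1 held 22529828 expected counts (reads shared among genes by the quantification program) and replicate 2 held 26890199. Levels are given in TPM, which are scaled to transcript length and sum to the same total in each library, and can be compared between genes. None of the 37 genes of the mitochondrial chromosome is among the listed genes. The 390 listed nuclear copies of them held 19.1% and 19.5% of the TPM of the 2 libraries. This lowers the TPM of every other gene. Whether the reads given to these copies came from mitochondrial transcripts was not tested. Of the kidney epithelial markers 4 of 9 reached a TPM of 1 in both libraries, as did 3 of 7 neuronal and 0 of 3 hepatocyte markers. In such bulk RNA, fewer cells that express a gene and less of its RNA per cell cannot be told apart.

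4 coding sequences show the base composition that runs through the comparison of the libraries below. They belong to the 2 members with the largest ratio in each direction, MRPL42 and MRPL19, which were higher in replicate 2, and MRPL41 and MRPL12, which were higher in replicate 1. The 90 bases from the start codon are printed 5′ to 3′ from the GENCODE transcripts on GRCh37, with G and C in capitals.
MRPL42: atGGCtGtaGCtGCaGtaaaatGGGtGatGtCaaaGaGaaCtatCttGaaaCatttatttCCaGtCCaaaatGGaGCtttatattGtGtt
MRPL19: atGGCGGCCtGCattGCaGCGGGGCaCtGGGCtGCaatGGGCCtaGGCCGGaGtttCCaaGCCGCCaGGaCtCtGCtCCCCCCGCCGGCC
MRPL41: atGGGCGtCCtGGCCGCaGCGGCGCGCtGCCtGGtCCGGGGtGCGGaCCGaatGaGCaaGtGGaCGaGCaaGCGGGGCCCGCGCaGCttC
MRPL12: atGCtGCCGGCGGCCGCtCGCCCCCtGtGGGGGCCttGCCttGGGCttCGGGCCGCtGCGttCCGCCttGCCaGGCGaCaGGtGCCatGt
MRPL42 lies on the plus strand of chr12:93861290-93909990, and G and C made up 32 of the 90 bases shown and 39.9% of its coding sequence. MRPL19, on the plus strand of chr2:75873909-75917977, departed from this composition, with 64 of the 90 bases and 47.2% of its coding sequence. In MRPL41, on the plus strand of chr9:140446331-140447007, the same figures were 66 of 90 and 65.7%. In MRPL12, on the plus strand of chr17:79670397-79674547, they were 66 of 90 and 60.8%.

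All 76 members were detected, reaching 1 TPM in each library, as did 63.8% of the listed protein-coding genes. Of them, 74 reached 10 TPM in both libraries, while MRPS17 was below it in both and MRPL13 in replicate 1. Their median was 60.4 TPM in replicate 1 and 55.2 TPM in replicate 2. By mean TPM, 67 of the 76 lay above 18.6, the median of detected protein-coding genes. The levels spanned 32.7-fold in replicate 1, from 8.28 to 270 TPM, and 33.3-fold in replicate 2, from 7.61 to 253 TPM. Summed over all members, they made up 0.534% ± 0.038 of the TPM (SD, n = 2). The 10 highest members held 33.9% of the members' TPM in replicate 1 and 32.2% in replicate 2. The order was nearly shared, and log2(TPM + 1) correlated between the libraries across the 76 members (Pearson's r 0.979, Spearman's rho 0.978). Genes are not independent replicates, and this is a description. Of the 75 pairs of neighbours in the order of mean TPM, 67 had overlapping library values. Overlap here means that the ranges of 2 genes over both libraries meet, and it does not compare the genes within a library. MRPS34 was above MRPS2 in both libraries although their ranges overlapped, so an overlap need not mean an uncertain rank. The neighbours that did not overlap included MRPS2 over MRPL4 near the top and MRPS36 over MRPS17 at the bottom.

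**Figure D1:**
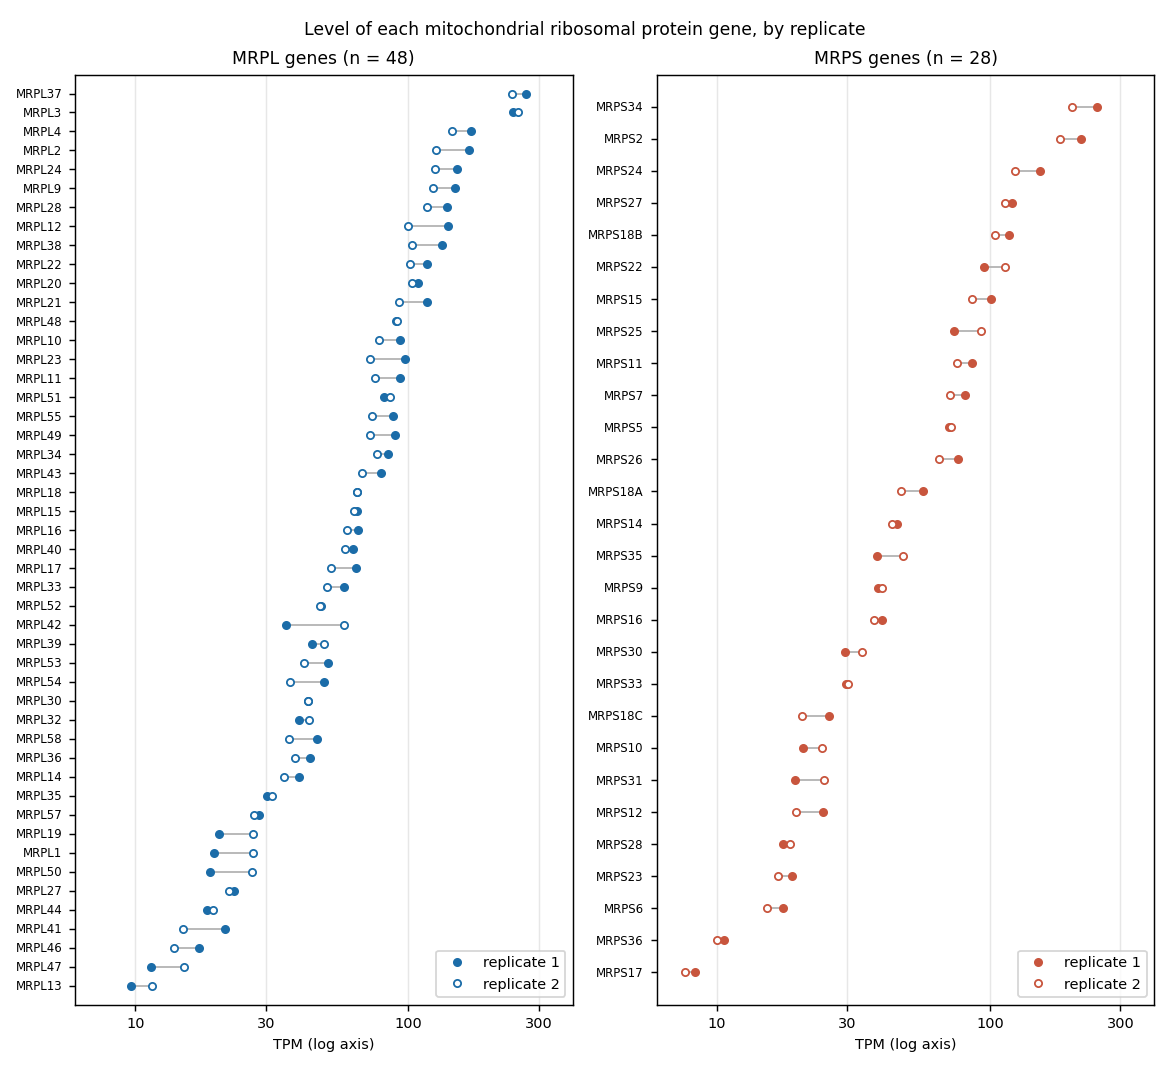
TPM of each of the 48 MRPL genes (left) and 28 MRPS genes (right) on a log axis, ordered by mean TPM, with filled points for replicate 1, open points for replicate 2 and a line joining them. The genes lie between 7.61 and 270 TPM, and the lines are short beside this range.

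Among the MRPL genes, MRPL37 was highest, at 270 TPM in replicate 1 and 241 TPM in replicate 2. It encodes a protein of the large subunit with no bacterial homologue. MRPL3, whose bacterial homologue reaches towards the peptidyl transferase centre, had 241 and 253 TPM, so that its values overlapped those of MRPL37. MRPL4, a protein of the wall of the exit tunnel, followed with 170 and 144 TPM. MRPL2, the homologue of a protein essential for peptide bond formation, had 167 and 126 TPM. MRPL24 had 151 and 125 TPM, and MRPL9 had 148 and 123 TPM. The ranges of these 4 genes over the libraries overlapped, but their order was the same in both. All 4 were lower in replicate 2.

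The lowest MRPL gene was MRPL13, at 9.61 and 11.5 TPM, the homologue of a protein that acts early in the assembly of the bacterial large subunit. MRPL47, whose homologue sits at the mouth of the exit tunnel, had 11.4 and 15.03 TPM. MRPL46 had 17.1 and 13.8 TPM, and MRPL41 had 21.3 and 14.9 TPM. The 4 values of replicate 2 lay between 11.5 and 15.03 TPM, and the order of these genes differed between the libraries.

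Among the MRPS genes, MRPS34 had 246 and 200 TPM. It is a small-subunit protein without a bacterial homologue. MRPS2 had 215 and 181 TPM, and its homologue lies where head and body of the small subunit meet. MRPS24, which corresponds to the bacterial protein at the entry of the mRNA channel, had 153 and 124 TPM. The pentatricopeptide repeat protein gene MRPS27 had 120 and 113 TPM. MRPS18B had 117 and 105 TPM, and MRPS22 had 94.7 and 113 TPM. MRPS22 was the only 1 of these 6 genes with the higher value in replicate 2.

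The lowest member of all was MRPS17, at 8.28 and 7.61 TPM, which encodes a homologue of an rRNA-binding protein of the bacterial small subunit. MRPS36 had 10.6 and 10.0 TPM. Its product is now known as a component of the oxoglutarate dehydrogenase complex, so that the symbol and the protein's place disagree. MRPS6 had 17.4 and 15.2 TPM and MRPS23 had 18.9 and 16.7 TPM. Even MRPS17 and MRPS36 were well above the level at which counting fails, since the lowest expected count of any member in a library was 108, with a counting error of 9.62%.

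The levels of the MRPL and MRPS genes were then compared. The median MRPL gene had 64.6 TPM in replicate 1 and 59.2 TPM in replicate 2, and the median MRPS gene had 43.0 and 45.6 TPM. The log2 ratio of the medians was 0.59 in replicate 1 and 0.38 in replicate 2, with a mean of 0.48 ± 0.15 (SD, n = 2). The ranges of both classes overlapped almost entirely, since the middle 50% of MRPL genes lay between 38.7 and 100.3 TPM in replicate 1 and that of MRPS genes between 23.4 and 88.3 TPM. No test was made, since an exact permutation test over 2 libraries cannot pass 0.05 and the genes of a class are not replicates. On CPM, counts scaled to the library total and not to length, the direction differed between the libraries. The log2 ratio was then 0.092 in replicate 1 and -0.17 in replicate 2. The median estimated length was 909 bases for MRPL and 992 bases for MRPS genes. MRPL genes also had the higher median GC content, 52.0% against 46.6%. Over the 76 members, mean log2(TPM + 1) had a Pearson's r of 0.448 with GC content. Whether GC content bears on the ratio of the classes was not tested. With MRPS18A and MRPS30, whose proteins sit in the large subunit, moved there and MRPS36 left out, the log2 ratio of TPM was 0.38.

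Grouped by lists of origin, the 30 large-subunit proteins listed with bacterial homologues had a median of 75.1 TPM in replicate 1 and 68.6 TPM in replicate 2. The 19 large-subunit proteins listed as particular to mitochondria had 49.0 and 47.3 TPM. In the small subunit the order was the other way round. The 14 proteins listed with bacterial homologues had 43.0 and 42.1 TPM, and the 10 listed as mitochondria-specific had 74.98 and 78.8 TPM. These are medians over few genes that spread more than 10-fold within each group, and no test was made. MRPS18A and MRPS18B were listed as mitochondria-specific although they are related to a bacterial protein, S18, so the order depends on how the lists were drawn. MRPS28, MRPS36 and MRPL58 were in none of the lists and were left out of these groups. MRPL58, a peptidyl-tRNA hydrolase built into the large subunit, had 46.3 and 36.5 TPM.

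**Figure D2:**
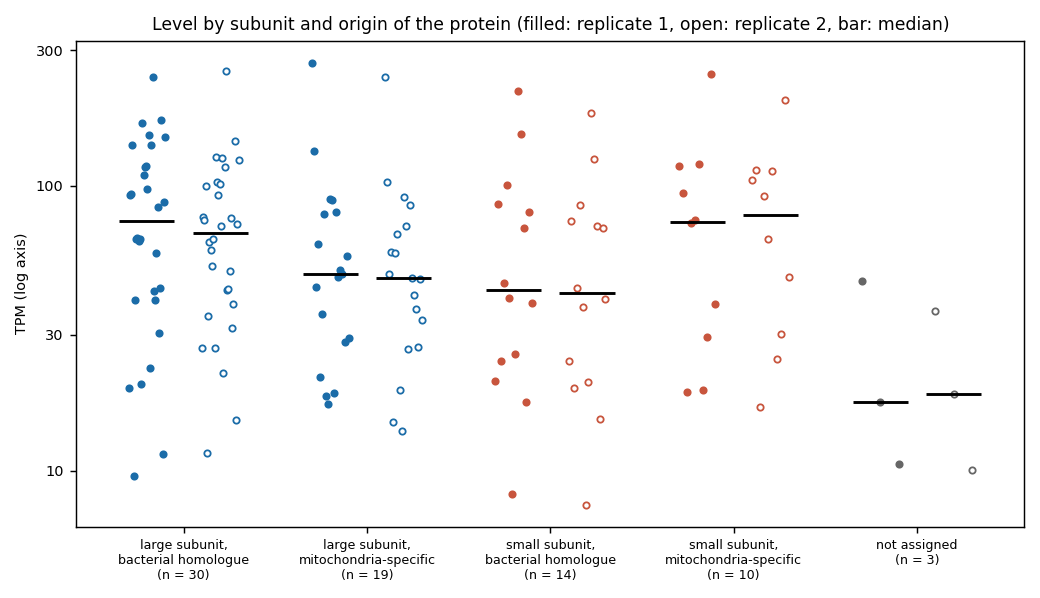
TPM of the 76 genes on a log axis by subunit and by whether the protein was listed with a bacterial homologue. The 3 genes left out of these groups are shown apart. Points are filled for replicate 1 and open for replicate 2, with a bar at each median. The medians of the large subunit are 75.1 and 68.6 TPM for proteins listed with a homologue. They are 49.0 and 47.3 TPM for those listed as mitochondria-specific, and the points of all groups overlap.

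The stalk of the large subunit, which recruits translation factors, is built from MRPL10 and MRPL12, with MRPL11 at its base. MRPL12 had 139 and 99.6 TPM, MRPL11 had 93.4 and 75.7 TPM, and MRPL10 had 92.9 and 78.0 TPM. All 3 were lower in replicate 2. The 3 paralogs related to the bacterial protein S18 stood far apart. MRPS18B had the 117 and 105 TPM given above, MRPS18A had 56.7 and 47.3 TPM, and MRPS18C, which is closest to the bacterial protein, had 25.7 and 20.5 TPM. Their values did not overlap. MRPS12, the homologue of a protein of the decoding centre, had 24.4 and 19.5 TPM. MRPS30 had 29.3 and 33.9 TPM. MRPL18, a protein of the central protuberance, had 65.1 and 64.9 TPM, and an alternative translation product described for it under stress is not measured by these RNA levels.

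5 proteins of the mitochondrial ribosome have symbols outside the pattern. DAP3, a GTP-binding protein of the small subunit, had 211 and 204 TPM. PTCD3, a pentatricopeptide repeat protein, had 143 and 169 TPM. GADD45GIP1, a large-subunit protein near the exit tunnel, had 141 and 134 TPM. These levels lay among those of the highest members. AURKAIP1 had 87.4 and 65.0 TPM, and CHCHD1 had 23.8 and 24.6 TPM.

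The libraries were compared gene by gene to find how far a member's level depended on the library. An exact two-sided binomial test on rounded expected counts was used, with the expected share from edgeR's TMM factors and Benjamini-Hochberg adjustment over the 19714 genes with at least 10 counts. It compares these 2 libraries and allows for counting error only. At an adjusted p under 0.05, 51 of the 76 members differed, against 43.1% of all genes tested. This share depends on depth, and 56.7% of genes with at least 100 counts were called. Of the members, 46 were higher in replicate 1, against 22.2% of all genes, and 5 were higher in replicate 2, against 20.9%. Among genes with at least 100 counts these shares were 30.4% and 26.3%. In MRPL genes 33 were higher in replicate 1 and 4 in replicate 2, and in MRPS genes 13 and 1. No member differed by 2-fold or more. Taken as replicate 2 over replicate 1, the log2 ratio had a median of -0.23 over the members and -0.0014 over all genes tested. It was -0.040 over genes with at least 100 counts. Where a biological coefficient of variation of 0.1 was assumed (edgeR exact test), 1 member, MRPL42, was called, at an adjusted p of 0.043, against 7.24% of all genes. The coefficient estimated from the 2 libraries over all genes was 0.2004, above the assumed value.

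The 5 members called higher in replicate 2 were the following. MRPL42, a mitochondria-specific protein, had 35.6 TPM in replicate 1 and 58.3 TPM in replicate 2, a log2 ratio of 0.63 on TMM-scaled counts (95% interval 0.53 to 0.73, exact Clopper-Pearson). MRPL19 had 20.2 and 27.0 TPM, a log2 ratio of 0.47. MRPL50 had 18.8 and 26.8 TPM (0.40) and MRPS25 had 73.9 and 92.4 TPM (0.36). MRPL1, the homologue of the protein of the other stalk, had 19.5 and 27.0 TPM (0.29). MRPL19, MRPL50 and MRPL1 lay below the median of the members in both libraries and MRPS25 above it in both, while MRPL42 was below it in replicate 1 and above it in replicate 2.

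The largest ratios in the other direction were those of MRPL41, at 21.3 and 14.9 TPM, with a log2 ratio of -0.63 (95% interval -0.83 to -0.43), and MRPL12, with -0.60 (-0.69 to -0.52). MRPL23, whose homologue lies at the exit tunnel, had 97.5 and 72.2 TPM (-0.54). MRPL54 had 49.0 and 36.9 TPM (-0.52) and MRPL2 had 167 and 126 TPM (-0.51). Unlike the genes higher in replicate 2, this group included members of high level.

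These ratios were lower in transcripts of higher GC content. Over the 76 members, Pearson's r between the log2 ratio and GC content was -0.798 and Spearman's rho was -0.841, as a description over genes that share their 2 libraries. Over the 13544 genes with at least 100 counts and a GC value, r was -0.617. In the 19 members of lowest GC content, from 35.01% to 43.4%, the median log2 ratio was 0.11 and 13 ratios were positive. In the next 19 it was -0.11, with 3 positive. In the 38 members above 50.3% GC no ratio was positive, and the medians of their lower and upper 19 were -0.29 and -0.39. MRPL50, at 35.01% GC, and MRPL41, at 66.7%, stood at the ends of this range, and MRPL42 had 37.5%. MRPL19, at 44.1%, and MRPS25, at 48.4%, lay above the other members of similar GC content. MRPL genes had a median GC content of 52.0% and MRPS genes of 46.6%.

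**Figure D3:**
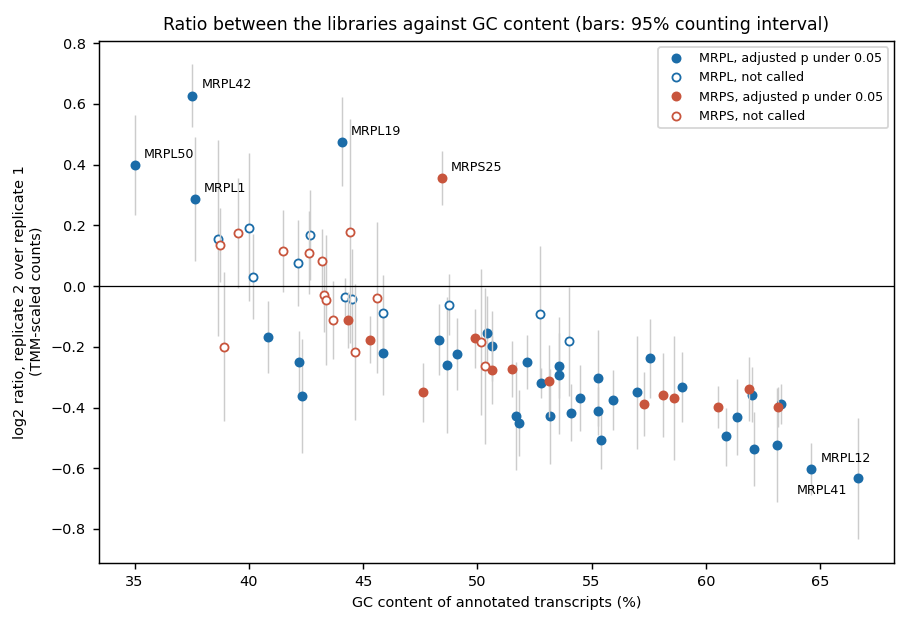
Log2 ratio of replicate 2 over replicate 1 on TMM-scaled counts against the GC content of the annotated transcripts for the 76 genes, with 95% counting intervals as bars, filled points for adjusted p under 0.05 and open points for the others. The ratios range from 0.63 for MRPL42 to -0.63 for MRPL41, and MRPL19 and MRPS25 lie above the trend.

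After the trend with GC content over all genes was removed, 51 members were again called, against 28.8% of all genes. Of these, 2 were higher in replicate 2, against 14.6% of all genes, and 49 in replicate 1, against 14.3%. Of the 13544 genes with at least 100 counts and a GC value, 2473 were higher in replicate 2 and 2583 in replicate 1. The 2 members were MRPL19, with a log2 ratio of 0.29, and MRPS25, with 0.36. The ratios of MRPL1, MRPL42 and MRPL50 were then -0.44, -0.11 and -0.44. The median over the members was -0.18, against 0.020 over all genes tested and -0.00057 over genes with at least 100 counts. The removal was uneven, with a median of -0.35 in the 19 members of lowest GC content and -0.17, -0.17 and -0.16 in the other groups of 19. The corrected ratio and GC content then had an r of 0.328 over the members. With a trend in transcript length removed as well, 30 members were called, against 27.2% of all genes. The direction of the median was thus the same in each of these fits, while the number called was not.

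Estimated transcript length, which enters TPM, also moved between the libraries. It was longer in replicate 2 for 43 members, equal for 7 and shorter for the others. The 43 were 56.6% of the members, against 45.9% of genes with at least 100 counts. In 7 members it was over 10% longer, and in 0 over 10% shorter, against 10.6% and 7.77% of genes with at least 100 counts. The 7 were MRPS36, MRPS18C, MRPL35, MRPL19, MRPL46, MRPS25 and MRPS14, singled out after their values were seen. A change in estimated length moves TPM without a change in counts, so that MRPS36 had a lower TPM in replicate 2 although its log2 ratio of counts was 0.18.

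Other genes of mitochondrial translation were followed in lists. Over all genes tested, 20.9% were higher in replicate 2 and 22.2% in replicate 1. Over genes with at least 100 counts these shares were 26.3% and 30.4%, and the counts below stand beside them. Of 14 translation factors, 5 were higher in replicate 2, 3 in replicate 1 and 6 did not pass the test. TUFM, the elongation factor that delivers aminoacyl-tRNA, had 265 and 216 TPM, close to the highest members. OXA1L, which inserts new proteins into the inner membrane, had 204 and 185 TPM. The initiation factor gene MTIF2 had 47.4 and 61.6 TPM, and the release factor gene MTRF1 was lowest by mean TPM, with 4.55 and 9.82 TPM. Of 23 genes for assembly and rRNA modification, 3 were higher in replicate 2, 13 in replicate 1 and 7 did not pass. The helicase gene DHX30 had 86.8 and 76.9 TPM, NGRN had 80.2 and 76.8 TPM, MALSU1 had 55.9 and 54.8 TPM, and the rRNA methyltransferase gene METTL15 was lowest by mean TPM, with 4.78 and 10.7 TPM.

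Of 7 genes for mitochondrial transcription and mRNA stability, 4 were higher in replicate 2, 2 in replicate 1 and 1 did not pass. LRPPRC, which protects mitochondrial mRNAs together with SLIRP, had 101 and 133 TPM, and SLIRP had 72.4 and 65.4 TPM. The polymerase gene POLRMT had 45.1 and 33.8 TPM, and TFB2M was lowest by mean TPM, at 5.84 and 6.99 TPM. Of the 5 ribosomal proteins outside the pattern, 3 were higher in replicate 1 and 2 did not pass. The median log2 ratio was 0.074 for translation factors, -0.21 for assembly genes, 0.32 for transcription and mRNA stability and -0.14 for the ribosomal proteins outside the pattern. Their median GC contents were 44.3%, 52.2%, 40.4% and 47.0%, in that order.

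**Figure D4:**
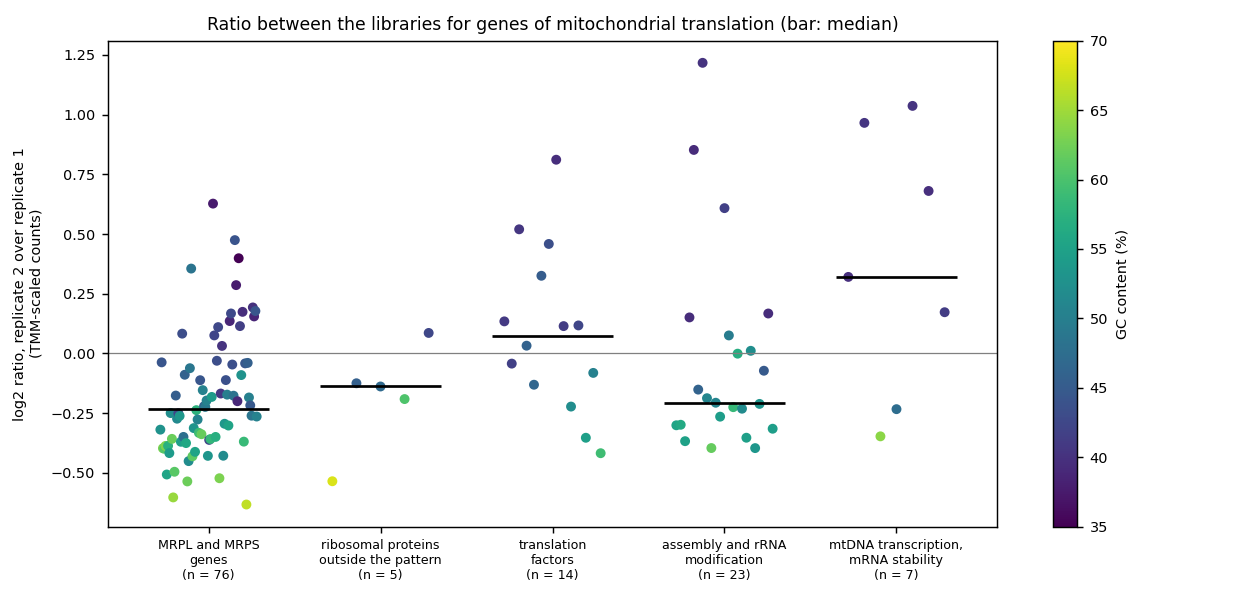
Log2 ratio of replicate 2 over replicate 1 on TMM-scaled counts for the 76 MRPL and MRPS genes and 4 lists of genes of mitochondrial translation, coloured by GC content, with a bar at each median. The medians lie between -0.23 for the 76 genes and 0.32 for transcription and mRNA stability, and most of the upper points are those of low GC content.

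The 5′ ends of the genes were examined next for letters known as binding motifs, in RefSeq windows of GRCh38.p14 that span a start site and reach mostly upstream of it. Windows were found for 67 members, and both strands were searched. A gene was counted once if any of its windows held the letters. The letters CCGGAAG, bound by ETS factors, were present in 29 of them (43.3%), in 22.6% of detected and in 16.8% of listed protein-coding genes. The letters AAGATGGCG, read by YY1, were present in 13 (19.4%), against 4.798% and 3.32%. GCGCANGCG, the core of the NRF1 motif, was present in 13 (19.4%), against 17.4% and 12.8%. Other letters were less frequent in members than in detected protein-coding genes. GGGCGG, the SP1 motif, was present in 61.2% of members against 79.3%, CCAAT in 32.8% against 43.7% and TATAAA in 4.48% against 8.02%. A match of letters is a description and shows no binding. Members with the YY1 letters had a median of 43.8 and 47.3 TPM and the other 54 a median of 64.7 and 59.2 TPM. With the CCAAT letters the medians were 39.3 and 37.6 TPM, against 71.0 and 65.2 TPM without. With those of NRF1 they were 42.8 and 40.2 against 63.9 and 59.2 TPM. With those of ETS they were 56.7 and 47.3 against 67.6 and 64.8 TPM. With TATAAA, in 3 members, they were 65.1 and 64.9 against 57.5 and 51.3 TPM. With the heat shock element letters given below, in 5 members, they were 81.1 and 85.4 against 53.8 and 49.8 TPM. In these small groups the medians are the values of single genes, MRPL18 and MRPL51. With the SP1 letters the direction differed between the libraries.

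In 10 of the 13 members the YY1 letters began at or after the start site, with a median offset of 9 bases, and 3 of them show this position. They are the highest member that carries the letters, MRPS24, and the lowest, MRPL46, with MRPL42 between, each printed 5′ to 3′ on the strand of the gene with the letters in capitals.
MRPS24: cgcttggcccAAGATGGCGgcctccgtgt
MRPL42: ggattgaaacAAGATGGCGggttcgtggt
MRPL46: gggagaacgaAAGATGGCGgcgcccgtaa
The stretch of MRPS24 lies on the minus strand at chr7:43869480-43869508 and that of MRPL42 on the plus strand at chr12:93467512-93467540. That of MRPL46 lies on the minus strand at chr15:88467362-88467390 (all GRCh38.p14). The letters begin 19, 8 and 8 bases after the start site.

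The palindromic letters GAANNTTC, a pair of inverted units of the heat shock element, were found in 5 members (7.46%). They were found in 6.32% of detected and 7.37% of listed protein-coding genes. MRPL18 was among the 5, and its match is shown because of the heat treatment.
MRPL18: gggaagaggttGAACCTTCgcctcaaacga
It lies on the plus strand at chr6:159789815-159789844 (GRCh38.p14), with the letters, in capitals, starting 41 bases before the start site of that window and 14 bases after another annotated start. MRPL18 was called higher in replicate 1, by a small ratio (log2 ratio -0.15, adjusted p = 0.033 by the exact binomial test). It was not called by that test with the GC trend removed (log2 ratio -0.061, adjusted p = 0.53). Nor was it called by the edgeR exact test with the assumed variation (adjusted p = 0.81).

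A protein-coding gene transcribed away from the member, with its start within 1000 bases, was annotated for 17 members (22.4%), for 8.30% of listed and for 11.3% of detected protein-coding genes. The levels of some such pairs were close and those of others unlike. MRPL27, with 22.9 and 22.1 TPM, starts beside EME1, with 23.5 and 27.35 TPM. The pairs that follow were unlike. MRPL49, with 89.3 and 72.2 TPM, starts beside FAU, a component of the cytosolic ribosome, with 938 and 825 TPM. MRPL18 starts 109 bases from TCP1, a subunit of a cytosolic chaperonin, which had 358 and 400.02 TPM. MRPL36, with 43.8 and 38.5 TPM, starts beside the complex I gene NDUFS6, with 155 and 139 TPM, and MRPL47 beside NDUFB5, of the same complex, with 37.8 and 33.0 TPM. MRPL46 and MRPS11 are both members and lie head to head. MRPS11 had 86.2 and 75.3 TPM, against 17.1 and 13.8 TPM for MRPL46. The 62 bases between their annotated starts, at chr15:89010622-89010683 on GRCh37, are printed on the plus strand because a single short stretch separates genes of both subunits that differ in level.
MRPL46 to MRPS11: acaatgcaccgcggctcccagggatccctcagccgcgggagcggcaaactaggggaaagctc
None of the letters searched for occurs within this gap.

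Reads can be assigned to a wrong gene where genes share sequence. Of the 76 members, 59 shared at least 1 sequence of 50 bases, the read length, with another listed gene. More than 10% of these sequences were shared in 25 members. Both strands were compared, so exons that overlap on opposite strands count as shared. The posterior SD of the count, the quantifier's own measure of this uncertainty, exceeded 10% of the count in 0 members and 2% in 8, with the highest value, 7.99%, in MRPL30. MRPL12 shared 67.9% of its 50-base sequences with an overlapping gene, ENSG00000262660, which was given 0.35 and 0.11 counts with a posterior SD of 475 and 463 counts. The split between these genes is uncertain. Exons of 38 members overlapped those of another gene on either strand, and no source used here says whether strand was used in counting. Of 73 named pseudogenes of the family, 52 had no count in either library and 7 reached a TPM of 1 in both. The highest were MRPL50P2, at 13.3 and 21.1 TPM, and MRPS10P1, at 18.8 and 8.63 TPM, the latter from 28.1 and 14.7 counts.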

How the data were processed

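The authors sequenced poly(A)+ RNA from HEK293T cells with 50 bp reads. Per the labels, Trimmomatic 0.36, STAR 2.6.1c and RSEM 1.3.1 were used with hg19/GRCh37.p13. The molecule is labelled genomic DNA, whereas the protocol describes poly(A)+ RNA. The authors deposited an expected count per gene, in which multi-mapped reads are shared among genes. The deposited TPM and FPKM are scaled to transcript length and library. The deposited posterior SD, read as a score, measures the uncertainty of each count. A deposited table of pooled values was not used for any result.

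Symbols, positions and GC content came from GENCODE release 44 on GRCh37, to which 96.1% of identifiers were matched, and promoters from RefSeq on GRCh38.p14. Expected counts were rounded and compared by an exact binomial test in R 4.3.3 with TMM factors of edgeR 4.0.16, taken over genes with at least 10 counts, and Benjamini-Hochberg adjustment. Log2 ratios had 0.5 count added. The test was checked on counts simulated with counting error only. Of 200 genes changed 2-fold, 97.5% were recovered, and 8 unchanged genes were called. The check does not cover variation beyond counting. Trends with GC and length were interpolated between the medians of 50 classes of genes with at least 100 counts. DESeq2 1.42.0 gave alternative size factors. Values are means and SDs of 2 libraries, and intervals cover counting error only.

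The members and lists were chosen with earlier results of these data known. MRM1 and RCC1L of the assembly list were not matched. Genes were named by a rule: the 6 highest and 4 lowest of MRPL and of MRPS, the 5 largest ratios in each direction with at least 100 counts, the stalk and S18-like proteins, MRPL18, MRPS12, MRPS30, MRPS36, ribosomal proteins outside the pattern, and the 3 highest and the lowest of each list. Neighbours, pseudogenes and sequence partners were singled out after their values were seen. After the data were seen, TMM factors over all listed genes, used at first, were replaced by those over genes with at least 10 counts, and both are given in the closing section, as are 2 limits on shared sequence. The result of 1 further marker list is not reported here.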

Additional observations from a re-analysis of the deposited data

How the results depend on the processing

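The log2 ratio of MRPL over MRPS was 0.31 with geometric means, 0.97 with summed TPM, which also reflects the larger number of MRPL genes (48 against 28), and -0.040 with CPM, which is not scaled to length. It ranged from 0.38 to 0.59 when either library was left out. In comparisons chosen after seeing the data it was 0.70 over the 51 members that shared at most 10% of their 50-base sequences. It was 0.94 over the 17 that shared none, where the only MRPS genes were MRPS12, MRPS26, MRPS28 and MRPS35. Detection stayed between 74 and 76 members under every threshold, and at 76 without either library. The members called between the libraries numbered 30 with GC and length trends removed (2 higher in replicate 2, 28 in replicate 1; 27.2% of all genes) and 1 with the edgeR exact test (1 and 0; 7.24% of all genes). With the GC trend removed 2 were higher in replicate 2, against 14.6% of all genes, and with library totals 10, against 23.5%. TMM factors over all listed genes, the setting used first and replaced after its results were seen, gave 50 members (7 and 43) and moved the calls over all genes from 4120 and 4378 to 4355 and 3959, so that the larger side changed for all genes and not for the members. The members' median ratio was then -0.21. It was -0.12 with GC and length trends removed and -0.15 on TPM with a pseudocount of 1. The share of TPM was 0.662% without nuclear copies of mitochondrial genes, 0.738% over protein-coding genes, 0.398% when taken on expected counts, and 0.507% to 0.561% in single libraries. Transcript length in place of GC content gave r = 0.419 with the log2 ratio. With the GC trend removed, the ratios of MRPL1, MRPL42 and MRPL50 were -0.44, -0.11 and -0.44. The causes were not tested. No paired analysis was possible because there was 1 group.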
